A study of Tachysurus vachellii and Tachysurus fulvidraco x Tachysurus vachelli and Tachysurus fulvidraco with 9 samples.

Results

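Members of 3 miRNA families known from nerve tissue were followed in the livers of juvenile catfish. The families were miR-9, miR-132 and miR-137, and the members were taken by name from the deposited table: both arms of miR-9 (aca-miR-9-5p_R+3 and aca-miR-9-1-3p_R+2), ssa-miR-132-5p and aca-miR-137b-3p, 4 of 888 entries. All 4 members passed the filter for testing, a normalized read count of 10 or more in at least 3 libraries, which left 278 of 728 distinct sequences. The 9 small RNA libraries came from liver of 3 lines, with 3 libraries each: P. vachelli, P. fulvidraco, and the hybrid yellow catfish Huangyou-1, whose mothers were P. fulvidraco and whose fathers were P. vachelli. All 3 lines were hatched and reared alike, each in 3 aquaria, and no line received a treatment. Nothing in the labels ties a library to a single fish, a tank or pooled fish, so p-values measure only the spread among these libraries, which may be technical.

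MiRNAs are short RNAs that guide silencing complexes to messenger RNAs, mainly through the seed, bases 2 to 8 of the mature strand. A precursor hairpin yields a strand from each arm, 5p and 3p, and often only 1 of them is kept in quantity. In vertebrates miR-9 is abundant in the brain, where it promotes the passage of neural progenitors to neurons, and both of its arms are in use: in mammals the 5p strand represses REST and the 3p strand CoREST, partners in the silencing of neuronal genes. Several miR-9 genes of a vertebrate genome can give the same mature strand. miR-132 is induced by neuronal activity in mammals and shapes dendrites, mostly through its 3p strand, and miR-137 takes part in neuronal maturation. Neither family is counted among the liver miRNAs.

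The mature sequences of the members show that they form no seed family. Each is printed 5′ to 3′ as the table gives it, in DNA letters, with the seed in capitals:
aca-miR-9-5p_R+3: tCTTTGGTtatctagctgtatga
aca-miR-9-1-3p_R+2: aTAAAGCTagataaccgaaagt
ssa-miR-132-5p: aCCGTGGCtttagattgttact
aca-miR-137b-3p: tTATTGCTtgagaatacgcgtag
The 4 seeds differ from each other, and no other distinct sequence of the table carried any of them. The strands are 22 or 23 bases long. Comparisons between strands below are of reads, and whether each strand was captured alike in library preparation was not tested. The table holds no further entry of the miR-9 family. The arms of miR-9 are complementary over a run of 12 bases, from position 6 to 17 of the 5p strand and 5 to 16 of the 3p strand, as strands of a common hairpin would be. Here the capitals mark that run:
aca-miR-9-5p_R+3: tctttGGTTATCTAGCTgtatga
aca-miR-9-1-3p_R+2: ataaAGCTAGATAACCgaaagt

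The libraries were dominated by the hepatocyte miRNA miR-122, the defining marker of the tissue, with 30.9% to 36.4% of the total over distinct sequences, and the estimated reads per library ran from 5185647 to 7788711. Beside this the members were minor species. By mean value over the 9 libraries aca-miR-137b-3p ranked 154 of 278, aca-miR-9-5p_R+3 170, aca-miR-9-1-3p_R+2 176 and ssa-miR-132-5p 210, where the median tested sequence stood at 334. In each library most low values (87.0% to 93.7%, within 0.1 read) were multiples of a step taken as the value of 1 read. On that step the members rested on 24 to 50 reads for ssa-miR-132-5p, 36 to 339 and 31 to 253 for the 5p and 3p arms of miR-9, and 130 to 358 for aca-miR-137b-3p. Intervals given for reads are exact Poisson 95% intervals and cover counting error only, because reads copied by PCR and carrying no molecular identifiers are not separate molecules.

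Both arms of miR-9 were high in P. fulvidraco and low in the other lines. The 5p strand aca-miR-9-5p_R+3 stood at 176, 330.02 and 313 normalized reads in P. fulvidraco libraries 1, 2 and 3, at 38.7, 88.9 and 52.2 in those of P. vachelli, and at 92.9, 86.7 and 52.0 in those of the hybrid. Every P. fulvidraco library lay above every library of the other lines, and P. vachelli and the hybrid overlapped. The 3p strand aca-miR-9-1-3p_R+2 stood at 99.5, 240.1 and 234 in P. fulvidraco, 44.1, 74.5 and 36.8 in P. vachelli, and 41.6, 37.5 and 48.6 in the hybrid. Its libraries were ordered alike, with P. fulvidraco apart and the other lines overlapping. Summed levels of the erythroid, muscle and leukocyte marker lists also ran higher in P. fulvidraco than in P. vachelli. On the deposited scale the endothelial, hepatocyte and sensory lists ran the other way, as given with aca-miR-137b-3p. For the erythroid miR-144 and miR-451 they were 78963 to 94637 against 37915 to 42304, for the muscle list 925 to 1213 against 444 to 485, and for the leukocyte list 14475 to 15549 against 13078 to 14145, with no family of these lists at 0 throughout. In the hybrid, where miR-9 was low, the same sums were 58721 to 97610, 810 to 1743 and 14531 to 15288, above P. vachelli in each list. Their part in the result was not tested. Of the tested sequences, 5 of 8 erythroid, 3 of 6 muscle and 2 of 7 leukocyte ones were called higher in P. fulvidraco, and 2, 2 and 0 lower. Sums of the pancreas list overlapped between the parents, with 8465 to 15441 in P. fulvidraco and 5730 to 12104 in P. vachelli. Of its 3 tested sequences 0 were called between the parents. Over all tested sequences 20.5% were called higher in P. fulvidraco than in P. vachelli and 30.9% lower.

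**Figure D1:**
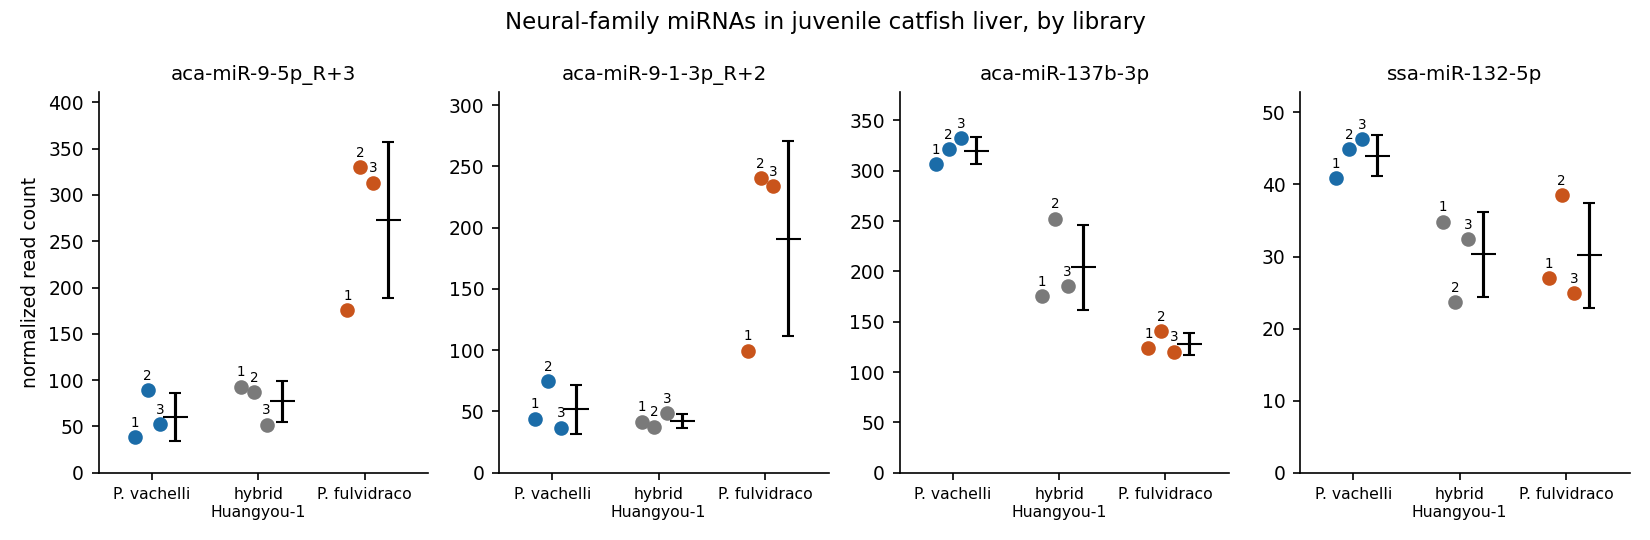
Normalized read count of each member (y axis, from 0) in the 3 libraries of each line (points, labelled by library number), with the mean and SD beside them. Both miR-9 arms are highest in P. fulvidraco, aca-miR-137b-3p falls from P. vachelli through the hybrid to P. fulvidraco, and ssa-miR-132-5p lies between 23.7 and 46.3 throughout.

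The parental species were compared first, since the hybrid is read against their distance. With limma fitted over all 9 libraries on log2 of the value plus 1, aca-miR-9-5p_R+3 was lower in P. vachelli than in P. fulvidraco by a log2 fold change of -2.20 (SE 0.36, 95% interval -3.01 to -1.39, adjusted p = 0.000805). For aca-miR-9-1-3p_R+2 the log2 fold change was -1.82 (SE 0.37, interval -2.64 to -0.999, adjusted p = 0.00244). aca-miR-137b-3p differed the other way and was higher in P. vachelli by 1.32 (SE 0.17, interval 0.94 to 1.69, adjusted p = 0.000152). The difference of ssa-miR-132-5p, 0.55 with an interval of 0.02 to 1.09, did not pass (adjusted p = 0.076). Thus 3 of the 4 members differed, where 51.4% of all tested sequences did (20.5% lower and 30.9% higher in P. vachelli), a background so high that the count says little. The parental libraries did not overlap in 4 of 4 members, nor in 59.4% of all tested sequences. By size of fold change the miR-9 arms ranked 28 and 36 among the 278.

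Hybrid livers held less of both miR-9 arms than P. fulvidraco livers, at levels whose range overlapped that of P. vachelli. Against the maternal P. fulvidraco, aca-miR-9-5p_R+3 was lower in the hybrid by a log2 fold change of -1.80 (SE 0.36, interval -2.61 to -0.99, adjusted p = 0.00855) and aca-miR-9-1-3p_R+2 by -2.04 (SE 0.37, interval -2.87 to -1.22, adjusted p = 0.0046). aca-miR-137b-3p was higher, by 0.65 (SE 0.17, adjusted p = 0.0209), and ssa-miR-132-5p gave 0.01 (interval -0.52 to 0.55, adjusted p = 0.986). In this comparison 19.4% of tested sequences were called, 6.47% lower in the hybrid and 12.9% higher, and 36.3% had groups that did not overlap, as 3 of the 4 members had. The miR-9 arms ranked 16 and 13 by size of fold change.

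Against the paternal P. vachelli neither miR-9 arm passed. The log2 fold change was 0.40 for the 5p strand (interval -0.41 to 1.21, adjusted p = 0.419) and -0.22 for the 3p strand (interval -1.04 to 0.60, adjusted p = 0.676). The only call among the members was aca-miR-137b-3p, lower in the hybrid by -0.66 (SE 0.17, interval -1.04 to -0.29, adjusted p = 0.0112), where 34.9% of all tested sequences were called. The value of ssa-miR-132-5p was -0.54 (interval -1.07 to -0.01, adjusted p = 0.1). For these last 2 members the groups did not overlap, as for 46.8% of all tested sequences. These comparisons share libraries, so their values are set side by side and their likeness is no separate result.

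**Figure D2:**
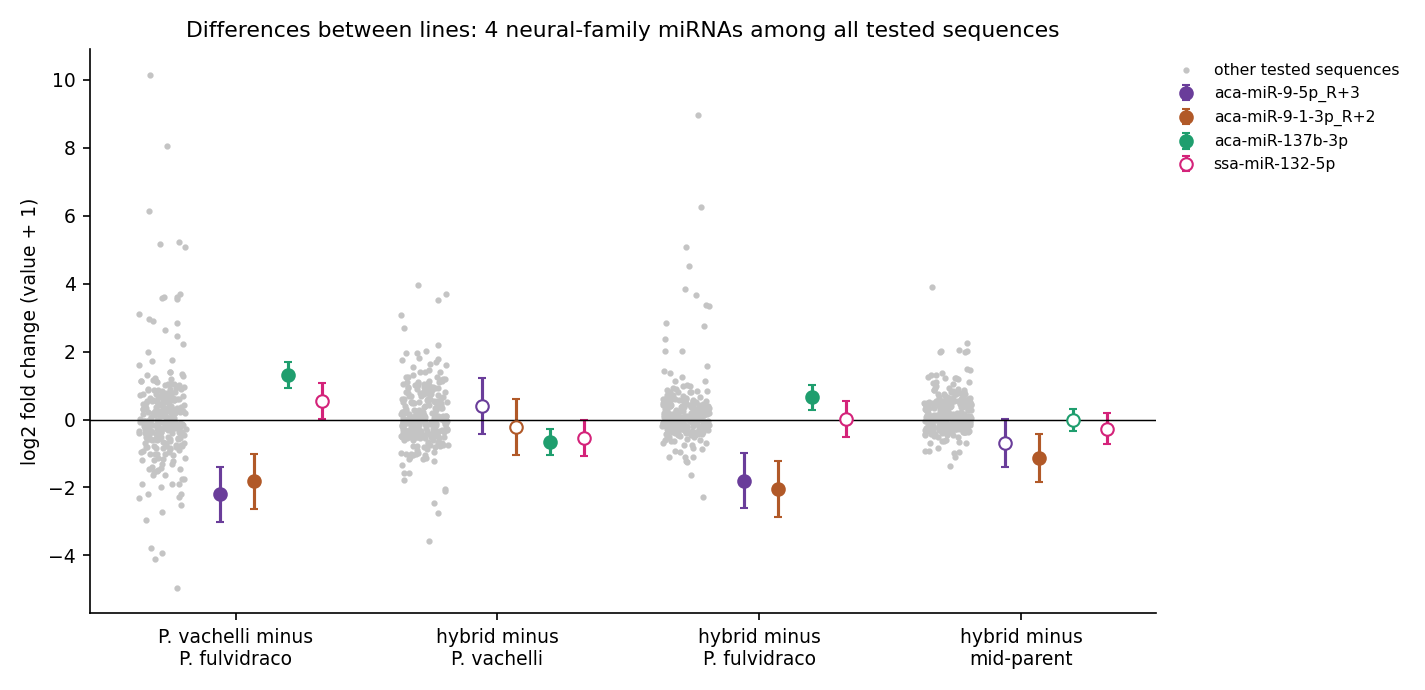
Log2 fold change of the value plus 1 (y axis) for each comparison (x axis), with the members as coloured points with 95% intervals and all other tested sequences as grey points spread sideways for visibility. Filled points have an adjusted p under 0.05. The miR-9 arms lie well below 0 in both comparisons with P. fulvidraco and near 0 between the hybrid and P. vachelli.

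A hybrid that is additive on the log2 scale would match the mid-parent, the mean of both parental means on that scale. On the deposited scale aca-miR-137b-3p did so closely, with a departure of -0.01 (interval -0.33 to 0.32, adjusted p = 0.975). With library totals set equal its departure was 0.19 and did not pass by limma (adjusted p = 0.41). On the deposited scale it lay at 49.6% of the way from P. fulvidraco to P. vachelli. The miR-9 arms lay at 81.8% (5p) and 112% (3p) of that way. The 3p strand was below the mid-parent by -1.13 (SE 0.32, interval -1.84 to -0.42, adjusted p = 0.0395), whereas the 5p strand, at -0.70 (interval -1.40 to 0.004, adjusted p = 0.143), did not pass. ssa-miR-132-5p gave -0.26 (adjusted p = 0.373). Of all tested sequences 18.7% departed from the mid-parent. The call for the 3p strand was narrow. It was lost with the library totals set equal (adjusted p = 0.064), with no filter (0.0814), and on leaving out any of 6 of the 9 libraries, with an adjusted p of up to 0.135 without hybrid library 2.

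The arms of miR-9 were then compared within libraries. The 5p to 3p ratio was 0.878, 1.19 and 1.42 in P. vachelli libraries 1, 2 and 3, 1.77, 1.37 and 1.34 in those of P. fulvidraco, and 2.23, 2.32 and 1.07 in those of the hybrid. The 5p strand thus had more reads than the 3p strand in 8 of 9 libraries, and the ranges of the 3 lines overlapped. On the log2 scale the ratio averaged 0.81 ± 0.62 in the hybrid, 0.56 ± 0.22 in P. fulvidraco and 0.19 ± 0.34 in P. vachelli (SD, n = 3), and the difference between the lines did not pass an exact permutation test over libraries (F = 1.62, p = 0.289, with 0.00357 the smallest p possible). Each of the 9 libraries was also left out in turn. Without any library other than hybrid library 3 the same exact permutation test gave p = 0.261 to 0.564. Without hybrid library 3 the exact permutation test gave F = 8.66 and p = 0.0321. This was the smallest of 9 unadjusted p-values, with 2 hybrid libraries left. Hybrid library 3 was singled out after these values were seen, so no difference between the lines is concluded. In that library the 5p strand rested on 45 reads (32.8 to 60.2), against 96 (77.8 to 117) and 88 (70.6 to 108) in hybrid libraries 1 and 2, while the 3p strand rested on 42, 43 and 38 reads in libraries 3, 1 and 2. Read counts depend on the depth of each library, so the normalized values given above are the ones to compare.

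**Figure D3:**
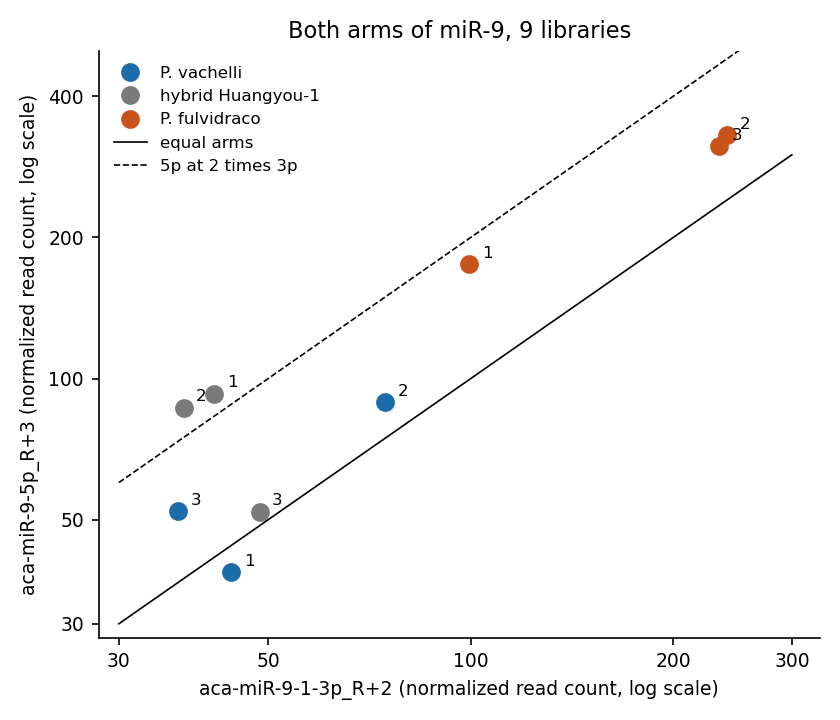
Normalized read count of the 5p strand (y axis, log scale) against the 3p strand (x axis, log scale) of miR-9 in the 9 libraries, coloured by line and labelled by library number, with lines for equal arms and for a 5p strand at 2 times the 3p strand. The P. fulvidraco libraries lie at the upper right, and hybrid libraries 1 and 2 lie above the upper line, apart from hybrid library 3.

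Since P. fulvidraco stood apart from the other lines in both strands, the arms were compared within lines only. After the mean of each line was removed, 6 of 9 libraries deviated the same way in both arms, and these were the parental libraries. In every hybrid library the arms deviated in opposite ways. On the log2 scale the 5p and 3p deviations were 0.31 and -0.02 in hybrid library 1, 0.21 and -0.17 in library 2, and -0.52 and 0.195 in library 3. P. vachelli library 2 was the highest of its line in both, and P. fulvidraco library 1 the lowest of its line in both, with 189 reads of the 5p strand (163 to 218) against 334 (299 to 372) and 339 (304 to 377) in libraries 2 and 3. The correlation of these deviations was positive but did not pass an exact permutation test within lines (Pearson's r = 0.67, p = 0.116; Spearman's rho = 0.78, p = 0.0972; two-sided, n = 9). In the 5p strand the deviations of P. fulvidraco library 1 and P. vachelli library 1 lay farthest from the median. Without these 2 libraries Pearson's r was 0.45 and Spearman's rho 0.71. The line means were not taken anew for this, so the 2 libraries still shaped the deviations of the others in their lines. Whether the agreement holds without them was therefore not tested. Pearson's r and Spearman's rho describe the single relation of this kind that was tested.

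aca-miR-137b-3p varied little among libraries of each parent and more in the hybrid. Libraries 1, 2 and 3 stood at 306, 322 and 332 in P. vachelli, at 175, 252 and 185 for the hybrid, and at 124, 140.3 and 120.1 in P. fulvidraco. The 3 lines did not overlap, in the order P. vachelli, hybrid, P. fulvidraco, and each step between neighbours in that order was called, as given above. Of all tested sequences, 46.8% did not overlap between P. vachelli and the hybrid, 36.3% between the hybrid and P. fulvidraco, and 59.4% between the parents. The share with all 3 lines apart was not counted. For aca-miR-137b-3p the coefficient of variation was 4.06% and 8.44% in the parents and 20.6% in the hybrid. Hybrid library 2 was high, with 256 reads (226 to 289) against 181 (156 to 209) in library 1 and 160 (136 to 187) in library 3. With library totals set equal, which moved the median of all sequences from -0.01 to 0.35 for the hybrid against P. vachelli, the step between those lines was -0.32 and did not pass (adjusted p = 0.175). Without hybrid library 2 the difference from P. fulvidraco was 0.49 and did not pass (adjusted p = 0.0862), and without P. fulvidraco library 1 or 3 the adjusted p was 0.0514 or 0.0824, and with no filter 0.0518. The opposite arm, aca-miR-137b-5p_R+1_2ss17AT18TG, reached at most 1.16 in any library, so only the 3p strand was present in quantity. Summed levels of other lists ran higher in P. vachelli too: the endothelial miR-126 (5 of 5 tested sequences higher than in P. fulvidraco) summed to 335528 to 396618 in P. vachelli, to 227326 to 258734 in P. fulvidraco and to 217286 to 248850 in hybrid livers. The hepatocyte list of miR-122, miR-192 and miR-194 (4 of 8 higher and 0 lower) did so as well, but with library totals set equal its parental ranges overlapped. Over all tested sequences 30.9% were called higher in P. vachelli than in P. fulvidraco and 20.5% lower. The sensory group of miR-96, miR-182 and miR-183, with no family at 0 throughout and 1 of its 5 sequences tested, summed to 25.3 to 34.4 in P. vachelli, to 6.97 to 15.8 in P. fulvidraco and to 1.73 to 15.5 in hybrid livers. The erythroid, muscle and leukocyte lists ran the other way, as given with miR-9. Their part in the result was not tested. In bulk liver, fewer cells of a type and less RNA per cell cannot be told apart.

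ssa-miR-132-5p was the least abundant member, with 40.8, 44.9 and 46.3 in P. vachelli, 26.96, 38.5 and 24.9 in P. fulvidraco, and 34.8, 23.7 and 32.4 for the hybrid. P. vachelli lay above the others, which overlapped. Of all tested sequences, 59.4% did not overlap between the parents and 46.8% between the hybrid and P. vachelli. By limma 0 of the comparisons of ssa-miR-132-5p passed, against 2 at an unadjusted p under 0.05 (0.0427 against P. fulvidraco and 0.0469 against the hybrid). Its depth limits what can be seen: the 38 reads of P. vachelli library 1 have an interval of 26.9 to 52.2, and the 39 of P. fulvidraco library 2 one of 27.7 to 53.3. The opposite strand ssa-miR-132-3p, the one mostly studied in mammals, had 3.71 to 6.92 times the normalized reads. It did not pass in any comparison either (log2 fold change 0.26 between the parents, interval -0.16 to 0.68, adjusted p = 0.271). In mammals miR-132 is made from a cluster with miR-212, whose 3p strand has the same seed. Seeds are again in capitals. The 3p strands share AACAGTC, and the 5p strand ssa-miR-212b-5p carries another seed:
ssa-miR-132-3p: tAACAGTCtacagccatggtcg
ssa-miR-212a-3p: tAACAGTCtacagtcatggct
dre-miR-212_R+2: tAACAGTCtacagtcatggctac
ssa-miR-212b-5p: aCCTTGGCtctagactgcttact
Of these, ssa-miR-212b-5p differed between the parents. Its libraries stood at 32.2, 37.7 and 40.3 in P. vachelli, at 34.8, 39.4 and 21.97 for the hybrid, and at 19.5, 14.8 and 13.9 in P. fulvidraco, which lay below both other lines. Its log2 fold change was 1.15 for P. vachelli against P. fulvidraco (adjusted p = 0.00514) and 0.93 for the hybrid against P. fulvidraco (adjusted p = 0.0359). The 3p sequences ssa-miR-212a-3p and dre-miR-212_R+2, at 3.69 to 17.7, did not pass between the parents (adjusted p = 0.448 and 0.353). The remaining 5 entries of miR-132 and 1 of miR-212 stayed under the filter. Of these ccr-miR-132b reached 8.89 to 11.1 in P. fulvidraco and 1.97 to 7.52 among hybrid livers. In P. vachelli it reached 2.69 in library 2 and was listed at 0 in the others. The others, aca-miR-132-3p_R-1, ccr-miR-132a_R+2, ccr-miR-132b_L-2R-1_1ss7GA, ccr-mir-132b-p3_1ss12TA and aca-miR-212-5p_R+3, were at 3.95 or less.

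The members were set beside the other neural families, in a list of 11 families, all of them in the table. Of its 16 tested sequences, 4 were higher and 5 lower in P. vachelli than in P. fulvidraco, where 30.9% of all tested sequences were higher and 20.5% lower, so that 9 of 16 called is near the 51.4% of all. These sequences had a median log2 fold change of 0.17 against -0.05 over all tested sequences. Without the members the counts were 3 and 3 of 12. The list thus moved in no common direction. aca-miR-124b_R+1, of the family that defines neurons, stood at 269, 428 and 418 in P. vachelli, at 337, 295 and 238 in P. fulvidraco, and at 341, 321 and 327 for the hybrid. These ranges overlapped between the parents (log2 fold change 0.34, interval -0.12 to 0.80, adjusted p = 0.188), and it did not pass in the other comparisons. With the members' families and the very abundant miR-128 left out, the other 7 families, of 20 sequences, summed to 1134 to 1224 in P. fulvidraco, to 1387 to 1557 in P. vachelli and to 1311 to 1506 in hybrid livers. On the deposited scale P. fulvidraco was thus the lowest. With library totals set equal the sums were 1216 to 1278, 1161 to 1425 and 1399 to 1664 in the same order, and the parental ranges overlapped. The part of nerve tissue in the miR-9 values was not tested.

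Among the other families, ccr-miR-218a_R+1, known from motor neurons, was higher in P. vachelli than in P. fulvidraco by 1.02 on the log2 scale (adjusted p = 0.000859). It was also higher in the hybrid than in P. fulvidraco, by 0.83 (adjusted p = 0.009). Both arms of miR-138 were lower in P. vachelli, aca-miR-138-5p_R+1 by -0.84 (adjusted p = 0.00223) and aca-miR-138-2-3p_L-2R+1_1ss7CT by -1.19 (adjusted p = 0.0384). The 3p call rested on few reads. Libraries 1, 2 and 3 stood at 8.6, 5.39 and 2.37 in P. vachelli and at 13.9, 8.89 and 15.7 in P. fulvidraco. In P. vachelli library 3 the value of 3 reads was 3.56. Also lower in P. vachelli was dre-miR-129-3p, by -1.56 (adjusted p = 0.00223), as both miR-9 arms were, whereas ccr-miR-153b was higher by 0.79 (adjusted p = 0.031). In turn dre-miR-129-3p and dre-miR-129-5p_R-1 were called higher in the hybrid than in P. vachelli by 1.40 (adjusted p = 0.0059) and 1.32 (adjusted p = 0.0226), and aca-miR-138-5p_R+1 by 0.54 (adjusted p = 0.032). Over the list, hybrid livers had 3 of 16 sequences higher and 1 lower against P. vachelli, where 15.5% and 19.4% of all tested sequences were. Against P. fulvidraco they had 3 higher and 2 lower, where the shares of all were 12.9% and 6.47%, the lower ones being the arms of miR-9, and aca-miR-138-5p_R+1, oha-miR-128-3p_R-1 and dre-miR-129-5p_R-1, the next by p outside the members' families, did not pass (adjusted p = 0.253, 0.271 and 0.293). The brain-enriched oha-miR-128-3p_R-1 was at 26737 to 38897 in these livers and passed in 0 comparisons by limma, against 2 at an unadjusted p under 0.05, where the hybrid stood at -0.29 against P. vachelli (adjusted p = 0.0772) and at -0.24 against the mid-parent (adjusted p = 0.112). Against the mid-parent the 3p arm of miR-9 was the only one of the 16 sequences called, and dre-miR-129-5p_R-1 came next, at 0.98 (adjusted p = 0.0644).

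**Figure D4:**
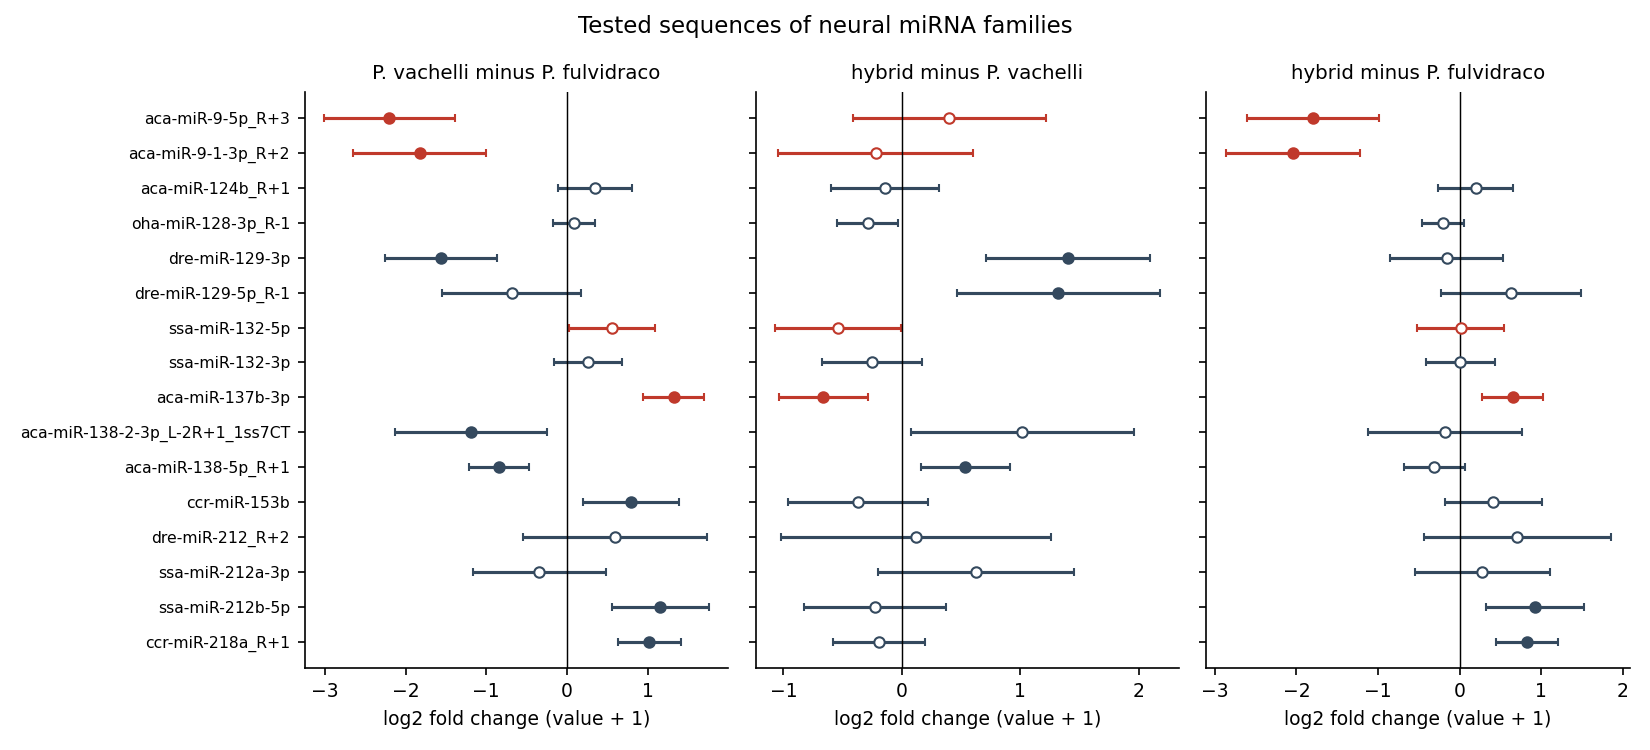
Log2 fold change of the value plus 1 with 95% intervals (x axis) for the 16 tested sequences of neural families (y axis, by family number) in 3 comparisons, with members in red, other sequences in dark blue and filled points for an adjusted p under 0.05. Sequences lie on both sides of 0 between the parents, and only the miR-9 arms are called lower in the hybrid than in P. fulvidraco.

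The sequences most like each member were sought by Pearson's r of log2 values over the 9 libraries, which share their line and depth, so that r is a description. For aca-miR-9-5p_R+3 they were chi-miR-190a-3p_L+1 (r = 0.89), ssa-let-7a-4-3p (0.86) and ssa-miR-30e-5p (0.84). For aca-miR-9-1-3p_R+2 they were dre-miR-146b_R+1 (0.88), ccr-miR-722_L-2R+3 (0.88) and hsa-miR-29b-2-5p_R+1_1ss18CT (0.87), none of them among those of the other arm on the deposited scale. With library totals set equal ccr-miR-722_L-2R+3 was named for both arms (r = 0.94 for 5p and 0.90 for 3p). aca-miR-137b-3p was most like gga-miR-181b-5p_R+1 (0.95), aca-miR-499-5p_R-1 (0.94) and ssa-miR-92b-3p (0.94). ssa-miR-132-5p was most like xtr-miR-429 (0.92), hsa-miR-3591-5p_L-1 (0.90) and ssa-miR-126-5p (0.85). With library totals set equal, 3 of the 3 named for ssa-miR-132-5p, 2 for aca-miR-137b-3p and 1 for each miR-9 arm were named again.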

How the data were processed

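Per the labels' protocols, the submitters made 9 liver libraries with the TruSeq Small RNA kit, sequenced them on an Illumina HiSeq instrument and filtered the reads with ACGT101-miR. The deposited table gives a signal per library and miRNA entry, named normalized counts per the file headers. The formula, the reference set of miRNAs and the build are not stated in the labels or the header, so no coordinates are printed. Of 888 entries, 153 sequences stand on several with equal values, and 1 row was kept per sequence (728), for totals and list sums too.

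From these values, limma 3.58.1 (R 4.3.3, limma-trend) was fitted to log2 of the value plus 1 for the 278 sequences that reached 10 in 3 libraries or more, with 1 mean per line. P-values are two-sided, adjusted by Benjamini and Hochberg over all 278 within a comparison, with a threshold of 0.05. The method was tested on simulated data. These were drawn with normal noise on the log2 scale and not as reads, so values of few reads were not imitated. The value of 1 read per library (0.898 to 1.19) was the step that low values of single-entry sequences followed. Of these low values 87.0% to 93.7% were whole within 0.1 read, so the whole table was not treated as counts. Of the 36 member values 34 were whole within 0.1 read. Replicate numbers were not used to pair libraries across lines, except as a block among the alternatives. Figures were drawn with Python 3.11.15 and matplotlib 3.10.9. The text names the members, the entries of miR-9, miR-132, miR-137 and miR-212, up to 4 other neural sequences of smallest p per comparison, and the 3 most alike sequences per member. The sequences aca-miR-124b_R+1 and aca-miR-138-2-3p_L-2R+1_1ss7CT and the other lists were added after their values were seen. Members and lists were chosen with earlier results of these data known. Alternatives covered scaling, pseudocount, filter, trend, a block for the replicate number, sums by family and arm, and each library left out. Each member was the only entry of its family and named arm, so those sums could not change its values. Only the shared spread and the adjustment, over 221 sums, could move its calls. The name of ccr-miR-132b gives no arm, so it was not summed with ssa-miR-132-5p.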

Additional observations from a re-analysis of the deposited data

How the results depend on the processing

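Of the 8 calls among the 16 tests of members, 5 held under all 19 alternatives: both miR-9 arms in both comparisons with P. fulvidraco, and aca-miR-137b-3p between the parents. The comparisons share libraries. Over all tested sequences 51.4% were called between the parents and 34.9% for the hybrid against P. vachelli. The hybrid's shares were 19.4% against P. fulvidraco and 18.7% against the mid-parent. How many of those calls hold under the alternatives was not counted, so the 5 are not set apart from other sequences. Sums by family and arm left the members' values as they were. Values below are log2 fold changes unless named otherwise, and the cause was not tested for those that moved. Setting library totals equal, with or without the most abundant sequence, moved the median of all sequences for the hybrid against P. vachelli from -0.01 to 0.35 or 0.28. It ended the call of aca-miR-137b-3p there (-0.32 or -0.38; relative to the median, -0.67 or -0.66, against -0.66 as deposited), turned aca-miR-9-1-3p_R+2 to 0.12 or 0.054, and put aca-miR-137b-3p at 0.19 or 0.13 and aca-miR-9-1-3p_R+2, no longer called, at -0.94 or -1.001 from the mid-parent. Equal totals also turned the split of all calls between the parents from 86 higher and 57 lower to 52 and 88, and for the hybrid against P. vachelli from 43 and 54 to 90 and 26. With median ratios ssa-miR-132-5p gave -0.0015 in the hybrid against P. fulvidraco. Without the filter aca-miR-137b-3p (0.65, adjusted p = 0.0518) lost its call against P. fulvidraco. The mid-parent call of aca-miR-9-1-3p_R+2 (-1.13) was lost without the filter, without the trend and with the replicate block, which changed no other call of a member. Sequences called against the mid-parent went from 52 to 21 without the filter and 30 with the replicate block. Without the trend ssa-miR-132-5p (0.55, adjusted p = 0.0498) passed between the parents, and at a filter of 50 it was not tested.

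Same-numbered libraries deviated together (r over 0.1) in 2 of 9 pairs, so the numbers were taken to pair nothing, and 1 of 9 libraries correlated best with its own number. With each library left out in turn, ssa-miR-132-5p ran from 0.43 to 0.74 between the parents, passing without P. fulvidraco library 2 (adjusted p = 0.0402), and from -0.11 to 0.198 in the hybrid against P. fulvidraco. In the hybrid against P. vachelli aca-miR-9-1-3p_R+2 ran from -0.43 to 0.069, and against the mid-parent from -1.34 to -0.99. The range for aca-miR-137b-3p was 0.49 to 0.75 against P. fulvidraco and -0.17 to 0.095 against the mid-parent. Counts of sequences called ran from 31, without P. fulvidraco library 3, to 59 for the hybrid against P. fulvidraco, and from 18, without hybrid library 2, to 58 against the mid-parent (28, 29 and 32 without P. fulvidraco library 2, P. vachelli library 2 and P. fulvidraco library 3). F for the miR-9 arm ratio ran from 0.673 to 8.66. The depth of ssa-miR-132-5p was 24 to 50 reads a library.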
